A study of Mus musculus with 16 samples.

Results

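Aminoacyl-tRNA synthetases join each amino acid to its transfer RNA, so that the ribosome can read the genetic code. The 36 genes described here were taken by symbol from the 24421 genes counted in each library, 20 for cytosolic and 16 for mitochondrial enzymes. All 36 were listed under their older symbols, and all 36 entered the tests, which took the 14514 genes that reached 10 counts in 4 or more libraries.

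Mammalian cells hold one set of these enzymes in the cytosol and another in mitochondria, and the nuclear genome encodes both. When amino acids run short, uncharged transfer RNAs activate the kinase Eif2ak4 (GCN2), which slows translation in general and favours translation of the transcription factor ATF4. ATF4 binds a DNA element in the promoters of many cytosolic synthetase genes, of amino acid transporters and of amino acid synthesis enzymes, and raises their transcription.

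RNA was sequenced from mouse embryo heads at embryonic day 8.5, dissected between the first arch and a level above the otic vesicle. Mutant embryos were homozygous for an Ift88 null allele, which removes a subunit of the transport particle that builds cilia, and wild type embryos were their comparison. The colony had been fed 10 ppm folic acid (enriched diet) or 2 ppm (moderate diet) through 3 generations, and the embryos were of the third (F3). The 4 groups were enriched diet mutants, enriched diet wild type, moderate diet mutants and moderate diet wild type, with 4 libraries each. The labels describe the mutants as null and name no Cre or tissue-limited deletion. The labels give each embryo's sex and no litter, so the p-values below measure the spread between these libraries only.

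Assigned counts ran from 19249433 to 44267434 per library. Levels are given as counts scaled to a common library total (CPM). Ift88 was at 2.01 to 8.61 CPM in the 8 mutants and at 17.9 to 20.9 CPM in 7 wild type libraries. Of the wild type libraries by label, replicate 2 of the moderate diet had 9.30 CPM of Ift88, below the others. Its genotype label is therefore in doubt, and every moderate diet and average comparison below uses it as labelled. Without it 2 cytosolic and 2 mitochondrial members were called higher on the moderate diet, against 4 and 2 with it. The sex label disagreed with sex-linked counts in 3 libraries, namely moderate diet mutants 1 and 2 and moderate diet wild type 2. Head tissue markers were present in all 16 libraries, with the neural genes Sox2 (216 to 299.8 CPM) and Otx2 (126 to 191 CPM) and the mesenchyme gene Twist1 (66.5 to 95.3 CPM) among them. On the first principal component, which held 47.6% of the variance, moderate diet mutant replicate 3 lay at -3.66, between the other 7 mutants at 14.7 to 23.7 and the 8 wild type libraries at -19.3 to -12.6.

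The ATF4 element was searched for in RefSeq promoter windows, from 250 bases before to 50 after a gene's start on GRCm38.p6, as TGATGNAA on the coding strand or its reverse complement TTNCATCA. No other motif was searched for. Windows were found for 13 of the 20 cytosolic and 14 of the 16 mitochondrial genes. Genes without a window were not searched, and may or may not hold the motif. The motif stood in the windows of 5 cytosolic genes (Aars, Gars, Iars, Tars and Yars) and of 0 mitochondrial genes, against 1219 of all 27025 genes with a window (4.51%) and 3.97% of all 32851 windows. All 5 are among the 12 cytosolic genes listed here, from general knowledge, as ATF4 targets, of which 8 had a window. Among the other cytosolic genes 0 of 5 windows held it. The list was drawn up with earlier results of these data known. The sites below are shown because they are matches found in these 5 genes, 1 for each, together with the site of Asns, the asparagine synthesis enzyme that is the textbook gene of this response. Capitals mark the motif in 30 bases of the coding strand, 5′ to 3′, and the distance is that of the first capital from the start site. A match is a description of the letters, not evidence of binding, and a window without one says nothing about the factor.

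Aars, chr8:111033840-111033869, + strand, at 10: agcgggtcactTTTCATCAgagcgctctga
Gars, chr6:55037960-55037989, + strand, at -30: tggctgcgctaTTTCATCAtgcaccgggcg
Iars, chr13:49682126-49682155, + strand, at 8: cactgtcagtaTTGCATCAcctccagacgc
Tars, chr15:11399655-11399684, - strand, at -15: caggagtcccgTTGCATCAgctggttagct
Yars, chr4:129189895-129189924, + strand, at 4: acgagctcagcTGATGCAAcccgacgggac
Asns, chr6:7693214-7693243, - strand, at -23: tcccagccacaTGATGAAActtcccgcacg

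Of the matches shown, TTGCATCA or its complement TGATGCAA occurred in Iars, Tars and Yars, while Aars and Gars had TTTCATCA. The 100 bases before the start of Gars and of Iars2 are printed in full, since both genes rose in enriched diet mutants and of these windows only that of Gars has the motif.

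Gars, chr6:55037901-55038000, + strand: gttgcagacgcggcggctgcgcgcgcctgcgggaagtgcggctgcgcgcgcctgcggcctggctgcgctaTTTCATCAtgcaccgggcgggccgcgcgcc
Iars2, chr1:185329402-185329501, - strand: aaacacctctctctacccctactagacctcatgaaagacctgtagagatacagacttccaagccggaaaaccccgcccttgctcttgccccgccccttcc

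Levels differed widely between the compartments. Per kilobase of merged exons, the median over the 8 wild type libraries ran from 13.8 CPM (Cars) to 124 CPM (Gars) among cytosolic genes, with a median of 51.9 over the 20. Among mitochondrial genes it ran from 1.45 CPM per kilobase (Mars2) to 108 (Lars2), with a median of 7.01 over the 16. Lars2 apart, the highest mitochondrial gene was Rars2 at 14.96 CPM per kilobase, just above Cars, the lowest cytosolic gene. Their ranges over the wild type libraries overlapped, at 13.8 to 18.2 for Rars2 and 12.4 to 14.9 for Cars. In 12 of the 13 pairs with 1 member gene for the same amino acid in each compartment, the cytosolic level per length was higher, by 2.27-fold (Yars over Yars2) to 50.4-fold (Mars over Mars2). The pair Lars and Lars2 had a ratio of 0.372, and Lars2 ran with the ribosomal RNA precursor Rn45s, as given below. Division by merged exon length, 11294 bases for Mars2 and 3423 for Mars, affects these ratios and the order of the genes. The length of the transcripts present was not measured.

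On the enriched diet, mutant heads had more RNA of 9 cytosolic and 2 mitochondrial synthetases than wild type heads, and less of 2 cytosolic and 1 mitochondrial. The cytosolic genes that rose were Cars, Sars, Lars, Iars, Gars, Nars, Eprs, Yars and Tars, with fold changes between 1.13 and 1.62. Those that fell were Farsa and Hars. Over all genes tested, 31.2% were called, 14.4% higher and 16.8% lower (edgeR quasi-likelihood test with Benjamini-Hochberg adjustment, threshold 0.05), against 9 of 20 cytosolic genes called higher. The median log2 fold change was 0.16 over the 20 cytosolic genes, 0.03 over the 16 mitochondrial genes and -0.01 over all genes tested. A bulk difference of this kind cannot tell fewer cells of a type from less RNA per cell.

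Of the 12 cytosolic genes listed as ATF4 targets 9 rose and none fell, and their median log2 fold change was 0.43. Of the other 8 cytosolic genes none rose and 2 fell, with a median of -0.10. The ATF4 list was drawn up with earlier results of these data known, so this split is no independent support. In 12 of the 36 members the 4 mutants lay above the 4 wild type libraries, against 11.2% of all genes tested. The 9 listed genes that rose were among these 12, but they were called on the same libraries, so this adds no support. In 4 members the mutants lay below, Farsa, Cars2, Aars2 and Yars2, against 12.5% of all genes. The 3 listed genes that did not pass were Aars at 0.13 (adjusted p = 0.18), Mars at 0.11 (adjusted p = 0.33) and Wars at -0.19 (adjusted p = 0.103). Aars, whose window holds the motif, was thus among those that did not pass, but it passed without enriched diet wild type replicate 3 (adjusted p = 0.0368), as Wars did as a lower gene without replicate 4 of that group (adjusted p = 0.035).

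**Figure D1:**
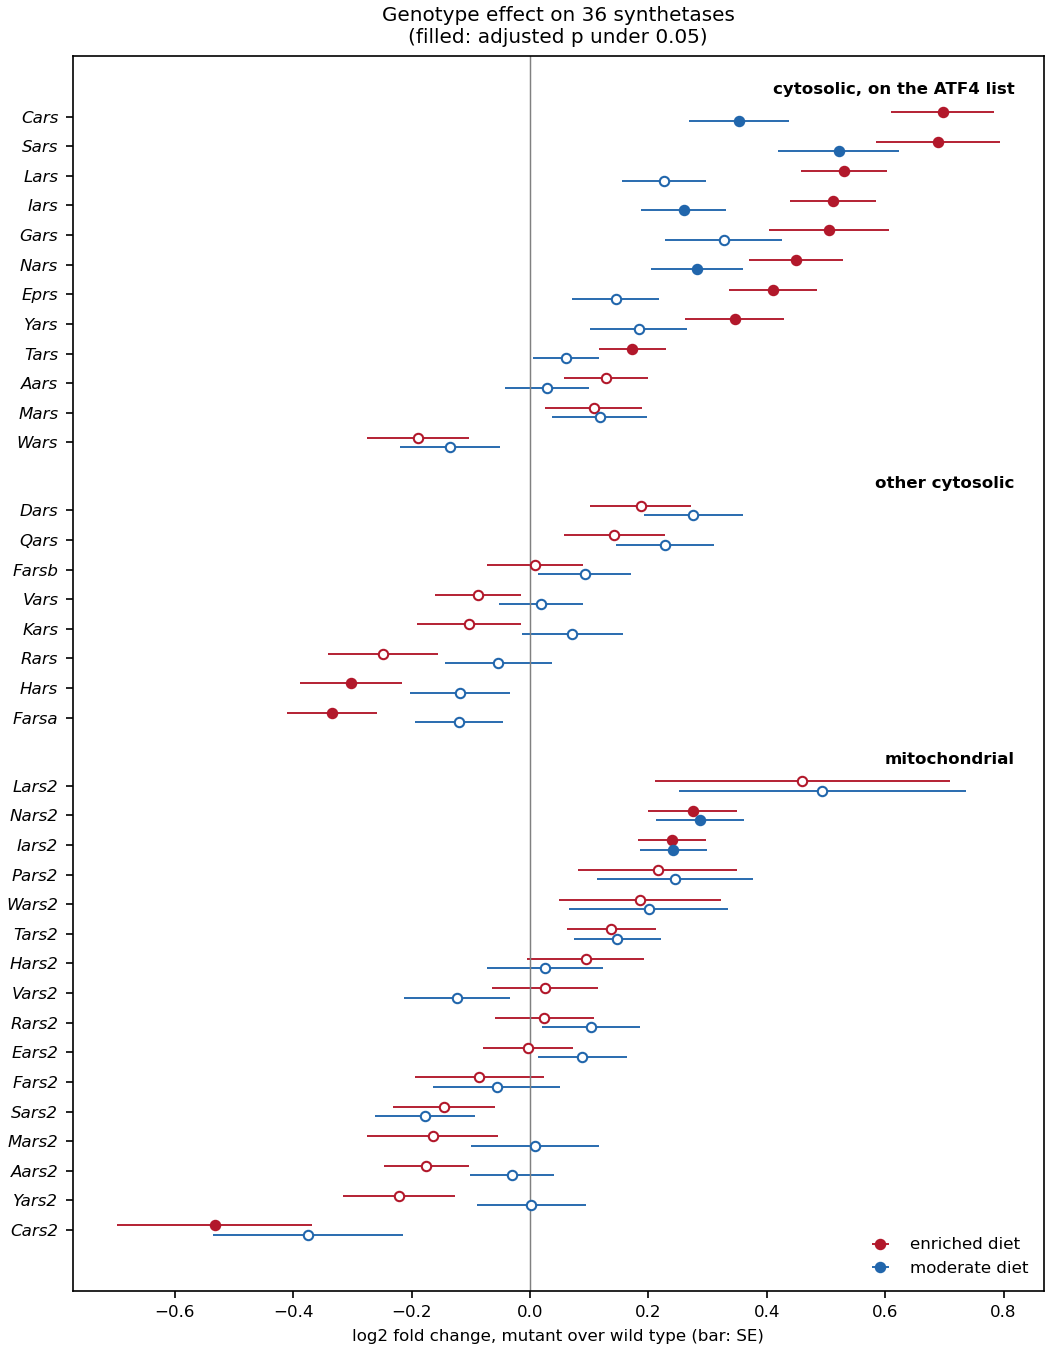
Log2 fold change of mutant over wild type heads for the 36 synthetase genes, by list, on the enriched diet (red) and the moderate diet (blue). Points are fitted values, bars are standard errors and filled points have an adjusted p under 0.05. The listed cytosolic genes reach 0.70 (Cars) on the enriched diet, and most of the other cytosolic and mitochondrial genes lie within 0.3 of 0.

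Cars, which charges tRNA with cysteine, showed the largest rise on the enriched diet. Its level was 135, 143, 129.8 and 154 CPM in enriched diet mutants 1 to 4, against 91.9, 89.3, 90.3 and 81.3 CPM in enriched diet wild type. Moderate diet values were 135, 117, 95.7 and 129 CPM in mutants, against 98.0, 91.9, 93.0 and 88.8 CPM in wild type. Enriched diet mutants were all above the wild type libraries, whereas moderate diet mutant replicate 3 fell inside the range of moderate diet wild type. The log2 fold change was 0.70 ± 0.09 (adjusted p = 0.000113) on the enriched diet and 0.35 ± 0.08 (adjusted p = 0.0179) on the moderate diet. The gene lies on chromosome 7 from 143557230 to 143600090 of mm10.

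Sars, the seryl enzyme, rose on both diets. Enriched diet mutants had 374, 390.1, 322 and 310.3 CPM, against 238, 202, 228 and 207 CPM in enriched diet wild type. Moderate diet mutants had 325, 344, 242 and 322 CPM, against 214, 211, 209 and 224 CPM in moderate diet wild type. All 8 mutants were above all 8 wild type libraries, and the lowest mutant was again moderate diet replicate 3. The change was 0.69 ± 0.10 (adjusted p = 0.000352) on the enriched and 0.52 ± 0.10 (adjusted p = 0.00528) on the moderate diet.

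The enzymes for the branched-chain amino acids isoleucine and leucine, Iars and Lars, both sit in the large cytosolic multisynthetase complex. For Iars, enriched diet mutants had 415, 426, 393 and 424 CPM, against 275, 319, 294 and 269.8 CPM in wild type. Its moderate diet values were 412, 406, 354 and 433 CPM in mutants, against 345, 349.8, 318 and 328 CPM in wild type. Every mutant exceeded every wild type library, with the narrowest gap on the moderate diet. Iars changed by 0.51 ± 0.07 (adjusted p = 0.000254) and 0.26 ± 0.07 (adjusted p = 0.0361) on the enriched and moderate diets.

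Lars values were 306, 282, 293 and 292 CPM in enriched diet mutants, against 217, 215, 197 and 176 CPM in enriched diet wild type. The moderate diet gave 262, 262, 243 and 286 CPM in mutants, against 237, 226, 223 and 214 CPM in wild type. Mutants again lay above wild type throughout. The enriched diet change was 0.53 ± 0.07 (adjusted p = 0.00019), and the moderate diet change of 0.23 (adjusted p = 0.0609) did not pass.

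Nars, the asparaginyl enzyme, had 417, 416, 403 and 365 CPM in enriched diet mutants, against 309, 294, 307 and 256 CPM in wild type. Its moderate diet values were 393, 407, 333 and 396 CPM in mutants, against 325, 323, 301 and 308 CPM in wild type. The groups did not overlap on either diet, and the changes were 0.45 ± 0.08 (adjusted p = 0.000995) and 0.28 ± 0.08 (adjusted p = 0.0363) on the enriched and moderate diets.

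Gars, the glycyl enzyme, had the highest level per length of all 36 genes. Its values were 565, 572, 516 and 469 CPM in enriched diet mutants, against 400.0, 380.0, 392 and 313 CPM in wild type. They were 511, 542, 403 and 502 CPM in moderate diet mutants, against 411, 405, 364 and 382 CPM in wild type. Moderate diet mutant replicate 3 stood below the highest wild type library of its diet, while the other 7 mutants stood above all wild type libraries. Gars changed by 0.51 ± 0.10 (adjusted p = 0.00203) on the enriched diet and by 0.33 (adjusted p = 0.0538) on the moderate diet, which did not pass.

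Eprs encodes a fused enzyme for glutamate and proline and is part of the multisynthetase complex. It had 650.2, 635, 625 and 584 CPM in enriched diet mutants, against 469.7, 530.4, 429 and 417 CPM in enriched diet wild type. Values in moderate diet mutants were 556, 543, 592 and 641 CPM, against 557, 536, 526 and 489 CPM in wild type. The groups were separate on the enriched diet and overlapped on the moderate diet. The enriched diet change was 0.41 ± 0.07 (adjusted p = 0.00115) and the moderate one 0.15 (adjusted p = 0.247).

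Yars, the tyrosyl enzyme, had 237, 231, 219 and 195 CPM in enriched diet mutants, against 180.5, 170.2, 185 and 154 CPM in wild type. Moderate diet mutants had 210.0, 220.3, 178 and 208 CPM, against 184, 183, 169.6 and 182 CPM in wild type. The groups did not overlap on the enriched diet, and moderate diet mutant replicate 3 fell inside the wild type range. Yars changed by 0.35 ± 0.08 (adjusted p = 0.00602) on the enriched diet and 0.18 (adjusted p = 0.183) on the moderate diet. Tars, the threonyl enzyme, had the smallest rise that passed on the enriched diet, 0.17 ± 0.06 (adjusted p = 0.0299). Its call was lost without enriched diet mutant replicate 2 (adjusted p = 0.0531) or enriched diet wild type replicate 4 (adjusted p = 0.0748).

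**Figure D2:**
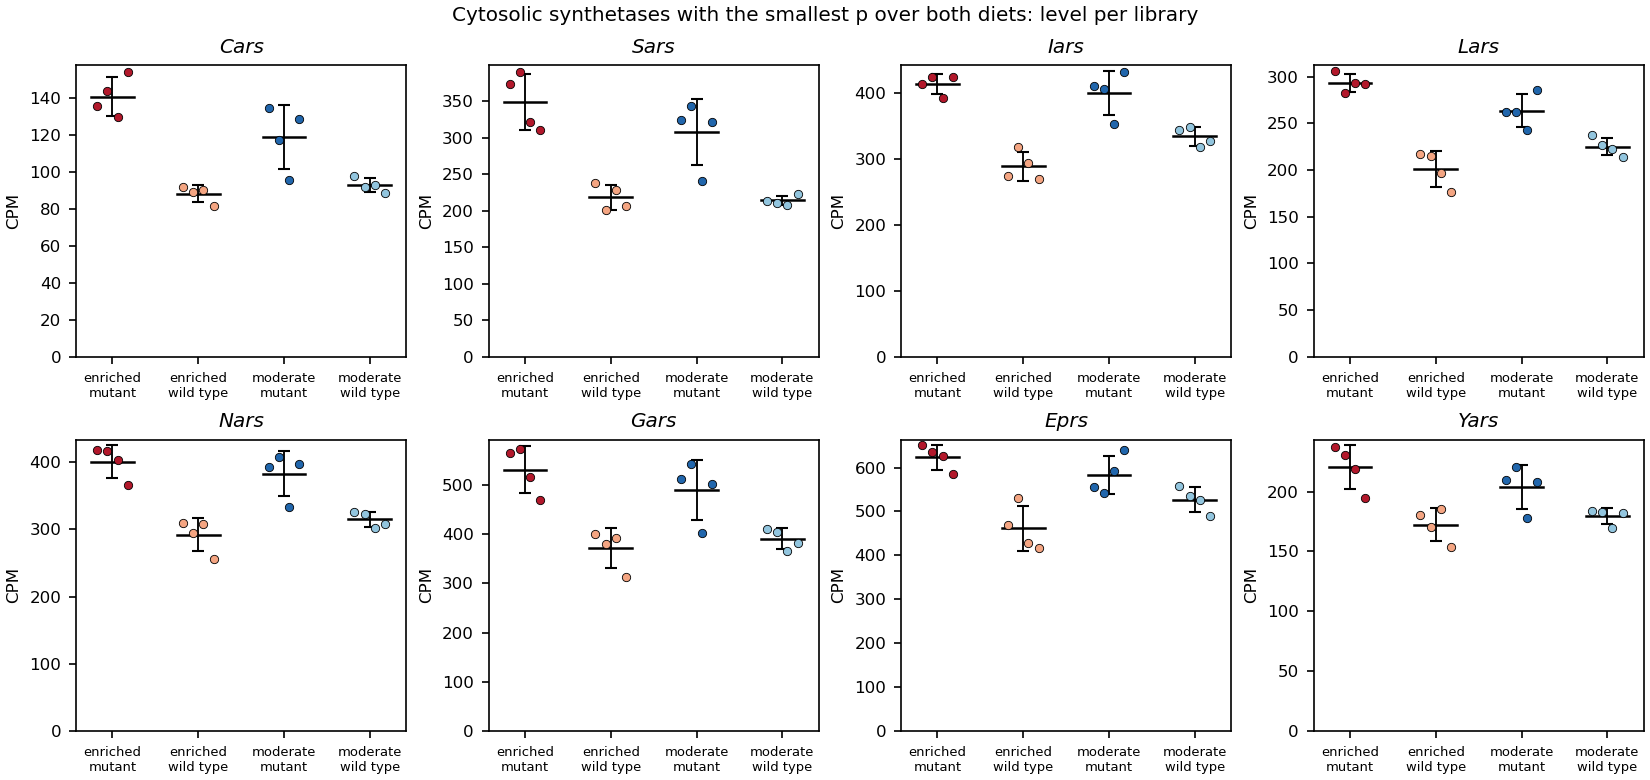
Level in CPM of the 8 cytosolic synthetase genes with the smallest p for the genotype effect averaged over diets, 1 point per library, with the mean (line) and SD (bar) of 4 libraries. For Sars, Iars, Lars and Nars all 8 mutants lie above all 8 wild type libraries.

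Among the 8 cytosolic genes off the ATF4 list, Farsa and Hars were the 2 that changed on the enriched diet. Farsa, the catalytic subunit of the phenylalanyl enzyme, averaged 102 ± 8.46 CPM in enriched diet mutants, against 126 ± 8.14 CPM in enriched diet wild type (SD, n = 4 each), a change of -0.33 ± 0.08 (adjusted p = 0.00453). Farsb, its partner subunit, was at 0.01 (adjusted p = 0.951), so of the 2 subunits of 1 enzyme only Farsa passed. Hars, the histidyl enzyme, averaged 114 ± 14.7 CPM in enriched diet mutants, against 136 ± 10.4 CPM in wild type, a change of -0.30 ± 0.09 (adjusted p = 0.0154). That call was lost when enriched diet mutant replicate 4 (adjusted p = 0.0644), wild type replicate 1 (adjusted p = 0.052) or wild type replicate 3 (adjusted p = 0.0704) was left out. Neither gene passed on the moderate diet, Farsa at -0.12 (adjusted p = 0.357) and Hars at -0.12 (adjusted p = 0.425). Rars, the arginyl enzyme, was at -0.25 (adjusted p = 0.0521) on the enriched diet, and passed without enriched diet mutant replicate 3 (adjusted p = 0.0373), wild type replicate 4 (adjusted p = 0.0246) or moderate diet mutant replicate 4 (adjusted p = 0.0293). The remaining genes of this list, Dars, Qars, Vars and Kars, ran from -0.10 (Kars) to 0.19 (Dars) on the enriched diet, and none passed. Dars passed without enriched diet wild type replicate 1 (adjusted p = 0.0203). The count of cytosolic genes called lower, 2, was 1 without enriched diet mutant replicate 4, wild type replicate 1 or wild type replicate 3, and 4 without wild type replicate 4.

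Many cytosolic synthetases are held in 1 large complex. Of the 8 enzymes of the multisynthetase complex, 3 rose on the enriched diet (Iars, Lars and Eprs), none fell and 5 did not pass, with a median log2 fold change of 0.16. None of the 3 genes for the scaffold that holds the complex together rose: Aimp2 fell by 0.37 on the log2 scale (adjusted p = 0.0299), and Aimp1 at -0.01 and Eef1e1 at 0.01 did not pass. Moderate diet values of these 3 scaffold genes were at 0.01, 0.20 and 0.21, and 0 of 3 passed. By structural class, 5 of 18 class I genes rose and 1 fell on the enriched diet, and 5 of 17 class II genes rose and 2 fell. Over all genes tested 14.4% rose and 16.8% fell. Eprs, which holds an enzyme of each class, was counted in neither.

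Fewer members were called on the moderate diet, 6 of 36. Sars, Cars, Iars and Nars were the 4 cytosolic genes called higher, with Iars2 and Nars2 the 2 mitochondrial ones, and 0 of 36 were called lower. Over all genes tested 7.62% were called, 4.79% higher and 2.83% lower. The median log2 fold change was 0.20 over the 12 listed cytosolic genes, 0.05 over the other 8, 0.06 over the 16 mitochondrial genes and -0.01 over all genes. In 9 of 20 cytosolic genes all 4 mutants were above all 4 wild type libraries, against 8.5% of all genes tested, and 3 of those 9 (Dars, Farsb and Qars) were off the ATF4 list. In 0 members did the mutants lie below, against 7.06% of all genes tested. Enriched and moderate diet comparisons share no libraries as groups, but were fitted together and share the estimate of spread.

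The moderate diet calls depended on single libraries. Without mutant replicate 3, 9 cytosolic genes were called higher, among them Gars, Lars, Qars, Yars and Dars. Cars2 was then called lower, at -0.51 (adjusted p = 0.0433), and Sars reached 0.63 (adjusted p = 0.000168). Without any 1 of the other 7 moderate diet libraries, 1 or 2 cytosolic genes were called higher, and without enriched diet wild type replicate 4, 7 were. Sars kept its call in each of these, but lost it without the 3 libraries with a disagreeing sex label (0.40, adjusted p = 0.298). In that fit 0 of 36 members and 105 of all genes tested were called. All 3 are moderate diet libraries, so only mutants 3 and 4 and wild type 1, 3 and 4 of that diet remained, with less power.

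Moderate diet mutant replicate 3 also stood apart over the whole ATF4 list. The mean centred log2 CPM of the 12 listed cytosolic genes, a score with 0 at the average of the 16 libraries, was 0.10 to 0.23 in enriched diet mutants and -0.37 to -0.13 in enriched diet wild type. Scores were 0.14 to 0.15 in moderate diet mutants 1, 2 and 4, -0.02 in mutant 3, and -0.14 to -0.04 in moderate diet wild type. Over 18 other genes of the amino acid response, replicate 3 scored -0.62, inside the wild type range of -0.89 to -0.56, while the other 7 mutants scored 0.69 to 1.12. Its Ift88 level of 2.01 CPM was the lowest of all libraries. For the other 8 cytosolic and the 16 mitochondrial genes its scores of 0.12 and 0.02 lay inside the ranges of the other moderate diet mutants.

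**Figure D3:**
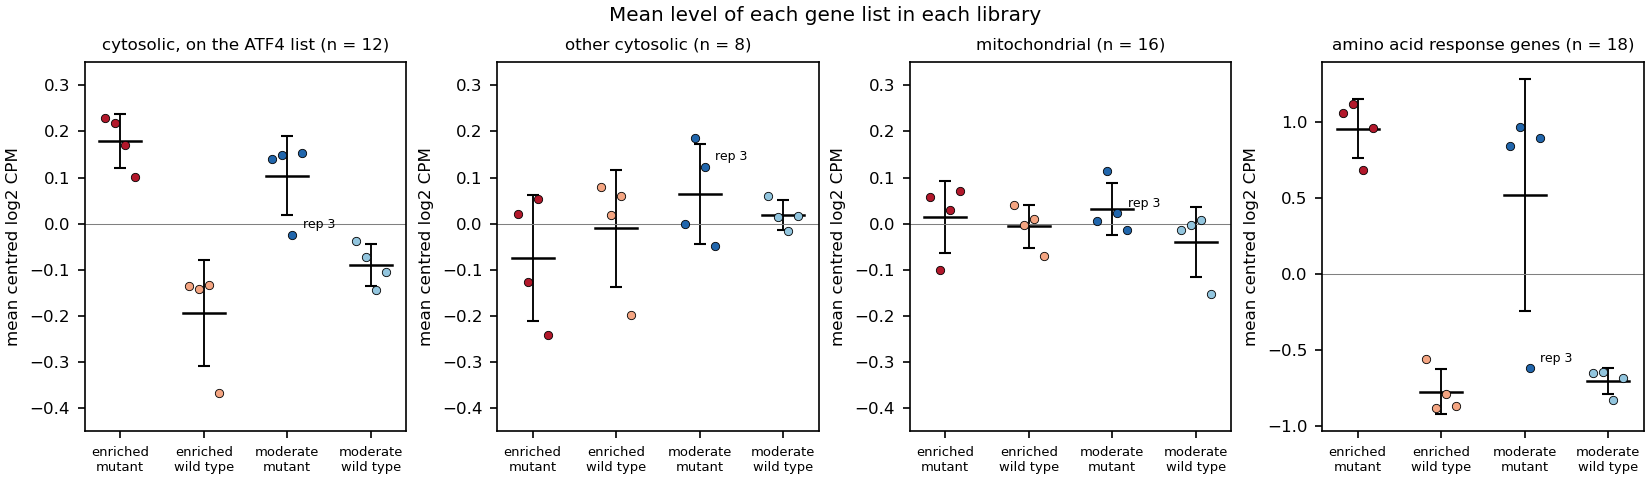
Mean centred log2 CPM of 4 gene lists, 1 point per library, with the mean (line) and SD (bar) of 4 libraries per group; the scale of the right panel is wider. Enriched diet mutants lie at 0.10 to 0.23 for the listed cytosolic genes, and moderate diet mutant replicate 3 (rep 3) lies at -0.02 there and at -0.62 for the amino acid response genes.

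Averaged over both diets, 11 cytosolic and 4 mitochondrial genes were called higher in mutants, and 3 cytosolic and 2 mitochondrial lower, where 35.8% of all genes tested were called (17.4% higher, 18.5% lower). The largest changes were Sars at 0.61 ± 0.07 (adjusted p = 2.13e-05), Cars at 0.53 ± 0.06 (adjusted p = 1.5e-05) and Lars2 at 0.48 ± 0.17 (adjusted p = 0.0424). Dars at 0.23 (adjusted p = 0.00736) and Qars at 0.19 (adjusted p = 0.0231) passed here and on neither diet alone. Wars fell by 0.16 on the log2 scale (adjusted p = 0.0454), the single listed ATF4 target to be called lower, and lost its call in 18 of 26 alternatives. Lars2 lost its call averaged over diets in 11 of 26 alternatives, with adjusted p from 0.00438 to 0.0784, and Tars2 in 10. The level of Lars2 also ran with that of Rn45s, the precursor of ribosomal RNA, as given below. In 7 of the 36 genes all 8 mutants were above all 8 wild type libraries (Sars, Iars, Lars, Nars, Tars, Iars2 and Nars2), and in 0 were they below, against 2.51% and 1.93% of all genes tested.

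Of the 16 mitochondrial synthetases 2 rose and 1 fell on the enriched diet, where 14.4% and 16.8% of all genes tested did, so these counts were no higher than the share over all genes. On the moderate diet 2 of 16 rose and none fell, against 4.79% and 2.83% of all genes. Iars2, the isoleucyl enzyme, and Nars2, the asparaginyl enzyme, rose on both diets. Iars2 had 113, 107, 107 and 102 CPM in enriched diet mutants, against 90.0, 92.8, 90.1 and 86.6 CPM in enriched diet wild type. Moderate diet mutants had 106, 120.0, 104 and 117 CPM, against 97.5, 93.8, 93.2 and 93.0 CPM in wild type. All 8 mutants were above all 8 wild type libraries, and the change was 0.24 ± 0.06 (adjusted p = 0.00594) on the enriched and 0.24 ± 0.06 (adjusted p = 0.0153) on the moderate diet. The gene, on chromosome 1 from 185284726 to 185329396 of mm10, shares 2034 exonic bases, 22.9% of its own, with Rab3gap2 on the opposite strand. The library kit keeps no strand, so reads there cannot be told apart. Rab3gap2 was itself at 0.22 (adjusted p = 0.0241) on the enriched diet and 0.02 on the moderate diet, and its part in the Iars2 result was not tested.

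Nars2 had 28.9, 27.6, 26.9 and 25.6 CPM in enriched diet mutants, against 23.3, 22.2, 22.8 and 21.1 CPM in wild type. Values on the moderate diet were 24.6, 28.7, 25.8 and 26.7 CPM in mutants, against 22.3, 22.1, 22.0 and 20.4 CPM in wild type. The genotypes did not overlap over both diets, although the lowest mutant (24.6 CPM) stood close to the highest wild type library (23.3 CPM). Nars2 changed by 0.28 ± 0.08 (adjusted p = 0.0122) and 0.29 ± 0.07 (adjusted p = 0.0254) on the enriched and moderate diets. Its moderate diet call was lost without mutant replicate 2 (adjusted p = 0.075) or 4 (0.0594), or without wild type replicate 1 (0.0516), 3 (0.0524) or 4 (0.0747), and that of Iars2 without mutant replicate 2 (0.0532).

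Cars2, the mitochondrial cysteinyl enzyme, went the other way from Cars. It had 10.8, 7.83, 11.9 and 13.3 CPM in enriched diet mutants, against 18.2, 14.8, 16.3 and 13.5 CPM in enriched diet wild type. Its values were 10.9, 12.2, 15.3 and 9.32 CPM in moderate diet mutants, against 14.9, 16.7, 15.0 and 15.3 CPM in wild type. On the enriched diet all mutants were lower than all wild type libraries, by a small margin, and on the moderate diet replicate 3 of the mutants lay among the wild type values. The change was -0.53 ± 0.17 (adjusted p = 0.0228) on the enriched diet and -0.37 (adjusted p = 0.169) on the moderate diet. The enriched diet call was lost without mutant replicate 1 (adjusted p = 0.0571) or 2 (0.122), or without wild type replicate 1 (0.0829) or 3 (0.0675). Cars2 shares 422 exonic bases, 5.83% of its own, with Naxd (Carkd in the files) on the opposite strand, which was at 0.07 and 0.09 on the enriched and moderate diets and did not pass.

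Sars2, the mitochondrial seryl enzyme, had 28.9, 26.4, 25.6 and 33.4 CPM in enriched diet mutants, against 33.5, 30.4, 33.0 and 31.1 CPM in enriched diet wild type. Moderate diet mutants had 27.4, 27.0, 29.7 and 27.6 CPM, against 33.8, 28.6, 32.1 and 31.9 CPM in wild type. The ranges overlapped on both diets, at -0.14 (adjusted p = 0.211) and -0.18 (adjusted p = 0.219). The average over diets, -0.16 (adjusted p = 0.0485), lost its call in 21 of 26 alternatives. Tars2, the mitochondrial threonyl enzyme, had 69.4, 57.4, 62.6 and 70.1 CPM in enriched diet mutants, against 61.4, 60.4, 60.4 and 52.8 CPM in wild type. Its moderate diet values were 63.3, 68.9, 62.4 and 62.7 CPM in mutants, against 58.5, 58.0, 59.0 and 56.9 CPM in wild type. Moderate diet mutants were above moderate diet wild type without overlap, but the change of 0.15 (adjusted p = 0.242) did not pass, nor did the enriched one of 0.14 (adjusted p = 0.172), which passed without enriched diet mutant replicate 2 (adjusted p = 0.049).

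Lars2, the mitochondrial leucyl enzyme, stood apart in level. Enriched diet mutants had 1424, 1378, 1761 and 1655 CPM, against 1233, 1070.2, 1184 and 1175 CPM in enriched diet wild type. Moderate diet mutants had 1908, 1740.0, 1495 and 1561 CPM, against 1218, 1669, 1417 and 464 CPM in moderate diet wild type. Enriched diet mutants were above their wild type throughout, and moderate diet wild type spread over the widest range, with replicate 4 the lowest of all 16. The change was 0.46 ± 0.25 (adjusted p = 0.168) on the enriched diet and 0.49 ± 0.24 (adjusted p = 0.232) on the moderate diet. Without moderate diet wild type replicate 4, the enriched diet change of 0.47 passed (adjusted p = 0.00642). It also passed with the enriched diet groups fitted alone (0.43, adjusted p = 0.0172). The main fit shared its estimate of spread over all groups. Lars2 made up 47.8 to 78.3% of the summed CPM of the 16 mitochondrial genes.

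The level of Lars2 ran with that of Rn45s, the precursor of ribosomal RNA, over these libraries. Lars2 held between 10.1 and 14.6 CPM for every 100 CPM of Rn45s in all 16. Rn45s averaged 13493 ± 2063 CPM in enriched diet mutants and 9650 ± 2029 CPM in enriched diet wild type (SD, n = 4 each). Its means were 13766 ± 2214 CPM in moderate diet mutants and 10038 ± 4758 CPM in moderate diet wild type, where replicate 4 had 3180 CPM. The Rn45s change of 0.59 (adjusted p = 0.137) on the enriched diet and 0.46 (adjusted p = 0.353) on the moderate diet did not pass, and its part in the Lars2 values was not tested.

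**Figure D4:**
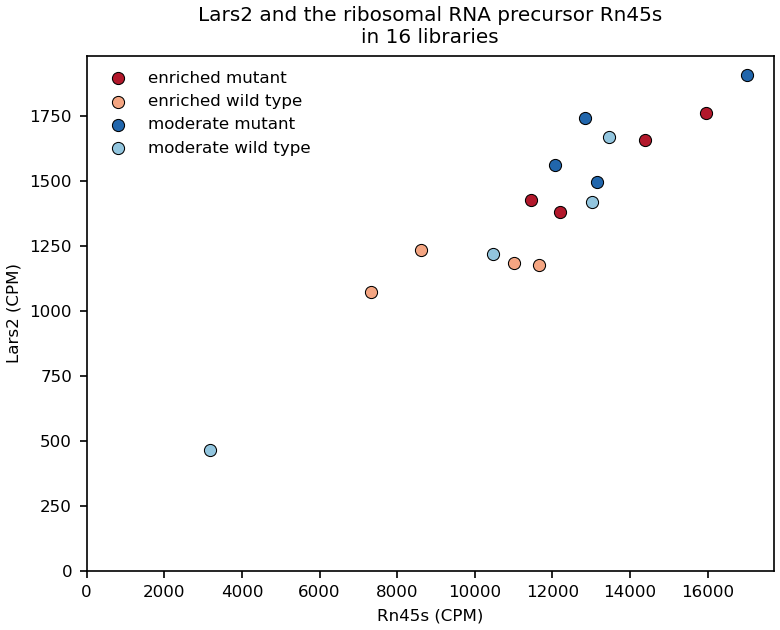
Lars2 against the ribosomal RNA precursor Rn45s, both in CPM, 1 point per library. Lars2 holds 10.1 to 14.6 CPM per 100 CPM of Rn45s in each of the 16 libraries, and moderate diet wild type replicate 4, at 464 and 3180 CPM, is lowest in both.

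Without Lars2, the summed level of the other 15 mitochondrial genes overlapped between genotypes on the enriched diet and not on the moderate diet. It averaged 540.5 ± 25.3 CPM in enriched diet mutants and 524 ± 16.2 CPM in enriched diet wild type. Moderate diet heads averaged 545 ± 22.9 CPM in mutants and 516 ± 9.23 CPM in wild type (SD, n = 4 each). The summed cytosolic level was 5975 ± 296 CPM in enriched diet mutants and 5094 ± 404 CPM in enriched diet wild type, and 5962 ± 223 CPM in moderate diet mutants and 5379 ± 155 CPM in moderate diet wild type. On each diet every mutant library was above every wild type library in the cytosolic sum, with the lowest mutants at 5550 and 5720 CPM and the highest wild type at 5321 and 5571 CPM on the enriched and moderate diets. Enriched diet wild type replicate 4 had the lowest cytosolic sum, 4490 CPM. These sums of CPM weight long and abundant genes most and carry no test.

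Of the 13 amino acids with 1 member gene in each compartment, 2 had both enzymes called higher on both diets, namely isoleucine (Iars and Iars2) and asparagine (Nars and Nars2). Cysteine was the single one with opposite calls, Cars higher and Cars2 lower on the enriched diet. For serine, tyrosine, leucine and threonine the cytosolic enzyme rose on the enriched diet and the mitochondrial one did not pass. Histidine had the cytosolic enzyme lower and Hars2 at 0.09, and the 2 genes share 195 exonic bases on opposite strands. The cytosolic estimate was above the mitochondrial one in 9 of 13 pairs on the enriched diet and in 7 of 13 on the moderate diet. Phenylalanine is not among the 13, since Farsa and Farsb together make its cytosolic enzyme. Its mitochondrial enzyme Fars2 was at -0.09 on the enriched and -0.06 on the moderate diet and did not pass, while Farsa was lower on the enriched diet. Glutamate and proline, which share Eprs, are not among them either.

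**Figure D5:**
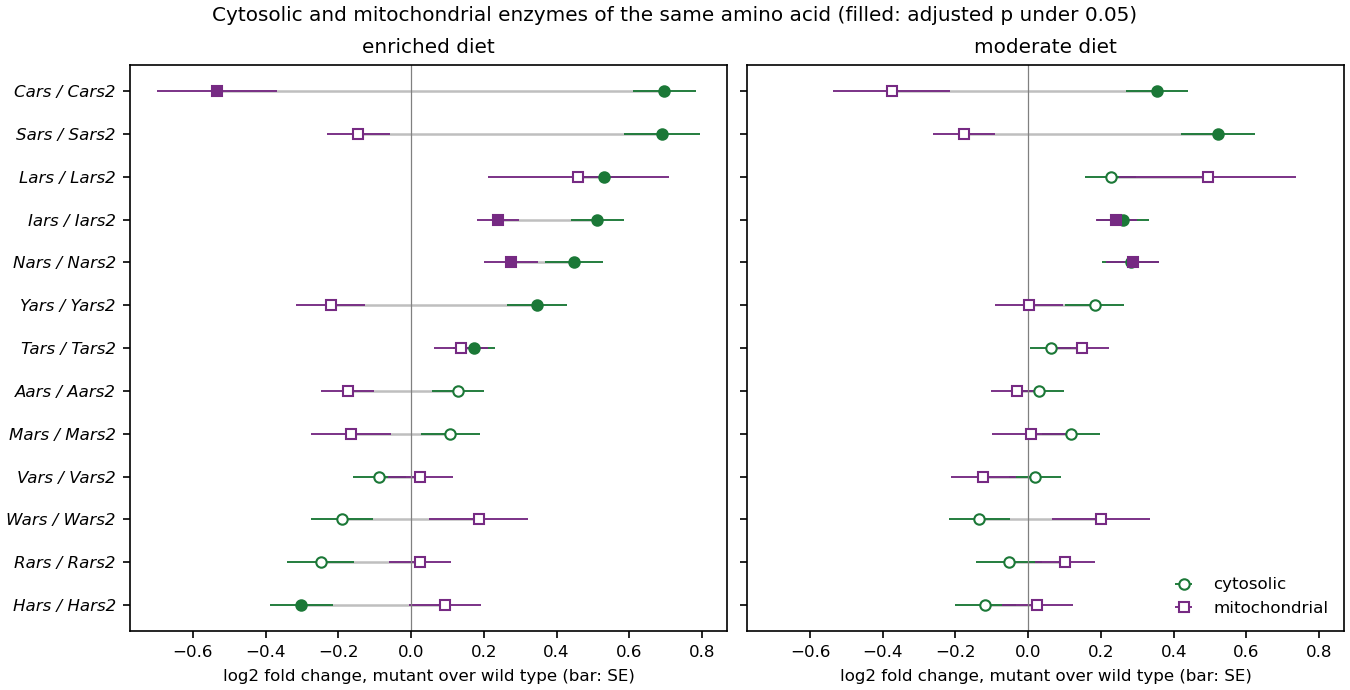
Log2 fold change of mutant over wild type heads for the cytosolic (green circle) and mitochondrial (purple square) enzyme of 13 amino acids on each diet; bars are standard errors and filled symbols have an adjusted p under 0.05. Cars and Cars2 lie farthest apart, at 0.70 and -0.53 on the enriched diet.

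The exons of 13 of the 36 members overlap those of another gene, by 0.505 to 22.9% of their own length. Whether reads in these overlaps were counted for a member or set aside as ambiguous is not given. Aars shares 1326 bases (14.3%) with Exosc6 on the same strand, and Exosc6 was at -0.71 (adjusted p = 0.00367) on the enriched diet, where Aars did not pass. Mars shares 68 bases with Ddit3 on the opposite strand. Cars, Yars and Nars2 are among the 13, with 3.21%, 0.505% and 4.08% of their length shared, while Sars, Iars, Lars, Nars, Gars and Eprs are not.

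Calls among genes that work next to the synthetases are given beside 14.4% of all genes tested higher and 16.8% lower on the enriched diet. Of 6 genes for the export of tRNAs and the editing of mischarged ones, 1 rose and 2 fell there, with a median log2 fold change of -0.03. Xpot, the exportin that carries tRNAs out of the nucleus, rose by 0.36 ± 0.07 (adjusted p = 0.00153) on the enriched diet and by 0.23 (adjusted p = 0.049) on the moderate diet. Prorsd1, a member of the family of prolyl-tRNA editing domains, was at -0.58 (adjusted p = 0.0111) and Ptrh2, a peptidyl-tRNA hydrolase, at -0.36 (adjusted p = 0.0161), both lower on the enriched diet, and neither passed on the moderate diet. Of 8 genes for the charging and modification of mitochondrial tRNAs, 1 fell and none rose on the enriched diet, with a median of -0.10, and 0 passed on the moderate diet. That gene was Gtpbp3, a modifier of mitochondrial tRNA wobble bases, at -0.34 (adjusted p = 0.00625). Qrsl1 and Gatc, subunits of the amidase that makes mitochondrial glutaminyl-tRNA in place of a dedicated enzyme, were at -0.24 and -0.09 and did not pass.

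The wider amino acid response rose on both diets, though not in moderate diet mutant replicate 3, which scored inside the wild type range. Of 18 of its target genes, 15 rose and none fell on each diet. Over all genes tested 14.4% rose on the enriched and 4.79% on the moderate diet. The median log2 fold change was 1.55 on the enriched and 1.04 on the moderate diet. All mutants lay above all wild type libraries in 15 of the 18 on the enriched diet, against 11.2% of all genes tested. On the moderate diet they did so in 6 of the 18, against 8.5%. On the enriched diet Asns rose by 1.65 ± 0.20, Slc7a3, a transporter of arginine and lysine, by 3.10 ± 0.36, the secreted glycoprotein Stc2 by 3.08 ± 0.35 and the lipoprotein receptor Vldlr by 2.96 ± 0.37. The largest synthetase change, 0.70 for Cars, was thus below the median of these targets. On the moderate diet Stc2 rose by 2.96 ± 0.35, Vldlr by 2.56 ± 0.37, Chac1, which breaks down glutathione, by 4.64 ± 0.75 and the mitochondrial serine enzyme Shmt2 by 0.86 ± 0.11. The 18 genes include well-known responders, and earlier work on these libraries had already shown the response, so their rise is no independent support for that of the synthetases.

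Of 12 regulators of the response, 6 rose and 1 fell on the enriched diet, and 2 rose and 1 fell on the moderate diet. Over all genes tested 14.4% rose and 16.8% fell on the enriched diet, and 4.79% rose and 2.83% fell on the moderate diet. On the moderate diet 0 of the 12 had all mutants above or all below wild type, against 8.5% and 7.06% of all genes tested. Ddit3, a transcription factor induced by ATF4, rose by 1.92 ± 0.27 on the enriched and 1.10 ± 0.27 on the moderate diet, and Cebpb, a partner of ATF4, by 1.75 ± 0.29 and 1.04 ± 0.29. Atf4 itself was at 0.57 (adjusted p = 0.00406) and 0.40 (adjusted p = 0.0589), although its activity is set largely by translation, which RNA does not measure. Eif2ak1, a kinase of the translation factor eIF2, fell by 0.56 and by 0.34 on the log2 scale on the enriched and moderate diets (adjusted p = 0.000767 and 0.0361). Of 10 translation factors 1 rose and 5 fell on the enriched diet, and 1 rose on the moderate diet. Eef2, the factor that moves the ribosome along, rose by 0.53 ± 0.11 and 0.53 ± 0.11. The genes Eif2b2, Eif2b4 and Eif2b1, which encode subunits of the exchange factor for eIF2, were at -0.57, -0.45 and -0.38 on the enriched diet, where all 3 fell, and 0 of the 3 passed on the moderate diet.

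The diet itself changed none of the 36 genes past the threshold in either genotype. Between enriched and moderate diet mutants 0 of 14514 genes were called by edgeR and 1565 had an unadjusted p under 0.05, while DESeq2 called 1 higher and 2 lower and limma-voom 0. Between enriched and moderate diet wild type 0 were called by edgeR and 354 (2.44%) had an unadjusted p under 0.05, while DESeq2 called 1 lower and limma-voom 0. Farthest from 0 in mutants were Mars2 at -0.22 ± 0.11 (adjusted p = 0.474), with 14.5 ± 1.65 CPM in enriched diet mutants and 17.2 ± 1.51 CPM in moderate diet mutants, and Cars at 0.22 ± 0.09 (adjusted p = 0.442), with 141 ± 10.5 CPM in enriched diet mutants and 119 ± 17.2 CPM in moderate diet mutants. Farthest from 0 in wild type was Iars at -0.20 ± 0.08 (adjusted p = 0.967), with 289 ± 22.2 CPM in enriched diet wild type and 335 ± 14.7 CPM in moderate diet wild type (SD, n = 4 each).

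Whether the genotype effect differed between diets was tested directly. None of the 14514 genes passed in edgeR, DESeq2 or limma-voom, while 1401 (9.65%) had an unadjusted p under 0.05. Cars, Lars, Eprs and Iars were the 4 members among these. Their genotype effect was larger on the enriched diet by 0.34 ± 0.12, 0.30 ± 0.10, 0.27 ± 0.10 and 0.25 ± 0.10 on the log2 scale, each with an adjusted p of 0.501. The estimated difference was above 0 in 10 of the 12 listed cytosolic genes, in 0 of the other 8 and in 3 of the 16 mitochondrial genes, against 7193 of all 14514 genes. These counts rest on the same libraries for every gene and carry no test. Moderate diet mutant replicate 3 and enriched diet wild type replicate 4 had the lowest listed scores of their groups. The larger count of calls on the enriched diet is therefore not shown to be a difference between diets.

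Markers of other cell types varied beside these results. The summed level of 6 erythroid markers was 701 to 3544 CPM in enriched diet mutants and 1470 to 3732 CPM in their wild type. It was 1219 to 3298 CPM in moderate diet mutants and 2400 to 6347 CPM in their wild type. Of these, 1 of 6 was called lower on the enriched diet and 0 on the moderate. All 6 estimates were negative on both diets, with medians of -0.51 (enriched) and -0.93 (moderate), against 7346 and 7530 of all 14514 genes. Of the head's own markers, 1 of 5 neural genes rose and 1 fell on the enriched diet, and 1 of 5 mesenchyme genes rose. On the moderate diet 0 of either list were called. For these and the other markers, the shares over all genes tested were 14.4% higher and 16.8% lower on the enriched diet. They were 4.79% higher and 2.83% lower on the moderate diet. Of 5 endothelial markers 2 rose and 1 fell on the enriched diet and 2 rose on the moderate diet, and Pecam1 and Flt1 were the 2 that rose on both. The summed endothelial level averaged 307 ± 8.41 CPM in enriched diet mutants and 282 ± 24.2 CPM in enriched diet wild type, and 336 ± 26.9 CPM in moderate diet mutants and 284 ± 21.7 CPM in moderate diet wild type (SD, n = 4 each). Heart markers were at most 3.87 CPM each, and Nkx2-5 was at 0 in 8 libraries. Of 3 decidual markers tested, Prl8a2 was called higher on the enriched diet (adjusted p = 0.0183) and none on the moderate diet. It reached 189 CPM in enriched diet mutant replicate 3, with Prl3c1 at 0 in all 16, and 5 yolk sac markers summed to 102 CPM in enriched diet mutant replicate 4. The part of these markers in the synthetase results was not tested.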

How the data were processed

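RNA-seq of 16 libraries was made with a TruSeq RNA kit, version 2, per the labels. Per the submitters' processing notes, the authors used FastQC 0.11.5, TopHat2 2.1.1 on mm10, SAMtools 1.8, HTSeq 0.9.1 and DESeq2 1.22.2. Neither the counting options nor the annotation is given in the sources used here. Each deposited file lists raw counts by gene symbol. The 5 summary lines of each file were left out, in which reads on no feature were 13.7 to 17.0% and ambiguous reads 1.20 to 1.39% of uniquely aligned reads.

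Counts were tested with edgeR 4.0.16 in R 4.3.3: TMM scaling, genes that reached 10 counts in 4 or more libraries, 1 quasi-likelihood fit of 16 libraries with 4 groups and labelled sex, and Benjamini-Hochberg adjustment over 14514 genes. The procedure was tested on counts simulated with the spread of these libraries. They held no sex effect, outlying library or wrong label, so that test does not cover these. Alternatives used median-of-ratios scaling, DESeq2 1.42.0, limma-voom (limma 3.58.1), other filters, other sex terms, a replicate block, fewer libraries and an adjusted p of 0.1. Scores use log2 CPM with a prior count of 2. Within-group libraries correlated at 0.975 to 0.995 and none agreed within sampling noise. Exon lengths, overlaps and gene coordinates come from GENCODE vM21, which may differ from the authors' annotation, and promoter letters from RefSeq (GRCm38.p6), with the match nearest the start site shown for a gene.

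The members and gene lists were chosen with earlier results of these data known. All 36 members may be named. Values per library are given for the 8 cytosolic and 5 mitochondrial genes with the smallest p averaged over diets, and for enzymes of the same amino acid as the first 3 of either class, and at most 4 genes of any other list are named per contrast; genes that share exons with a member, and Rn45s, are given beside it.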

Additional observations from a re-analysis of the deposited data

Results flagged for a closer look

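In 9 of 144 combinations of a member and a group of 4 libraries, 1 library lay far from the other 3, with a gap to its nearest neighbour, as a share of the group's range, above Dixon's 95% critical value; chance gives about 1 in 20. Enriched diet wild type replicate 4 was the lowest of its group for Mars (190.7 CPM, others 245.5 to 254.4, gap 0.86), Rars (193.1 CPM, others 235.1 to 238.5, gap 0.926), Tars (179 CPM, others 204.1 to 206.5, gap 0.914) and Tars2 (52.78 CPM, others 60.35 to 61.44, gap 0.874). Enriched diet mutant replicate 2 was the lowest for Aars2 (33.84 CPM, others 38.08 to 38.8, gap 0.855) and Mars2 (12.07 CPM, others 15.28 to 15.48, gap 0.94). Moderate diet wild type replicate 3 was the lowest for Yars (169.6 CPM, others 182 to 184.1, gap 0.85), and replicate 1 of that group the highest for Iars2 (97.54 CPM, others 93.02 to 93.78, gap 0.832). Moderate diet mutant replicate 2 was the highest for Tars2 (68.95 CPM, others 62.45 to 63.33, gap 0.864). Without enriched diet wild type replicate 4, Rars and Wars were called lower on the enriched diet (adjusted p = 0.0246 and 0.035), and Tars was no longer called higher (adjusted p = 0.0748).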

How the results depend on the processing

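Of the 14 members called on the enriched diet, 11 were called in all 27 alternatives (Cars2, Hars and Tars were not). None of the 6 called on the moderate diet were. Averaged over diets, 12 of 20 were called in all 26. No called member reversed its direction, and scaling moved the median of all genes by at most 0.03 on the log2 scale.

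On the enriched diet, the replicate block gave 1 listed cytosolic gene lower against 0, 1 other cytosolic gene higher against 0 and 4 cytosolic genes lower against 2. Mitochondrial genes lower were 0 with the groups compared alone or without the 3 libraries with a disagreeing sex label, and 3 at an adjusted p of 0.1, against 1. All genes lower were 1612 with the groups compared alone, against 2433.

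On the moderate diet, listed cytosolic genes higher were 1 with the groups compared alone and 0 without those 3 libraries, against 4. Those 3 are all of the moderate diet, so fewer libraries were compared there and the power was lower. Other cytosolic genes higher were 1 under median-of-ratios scaling, DESeq2, no filter, the replicate block and an adjusted p of 0.1, against 0. Cytosolic genes higher were 7 with DESeq2 and at 0.1, 1 with the groups alone and 0 without the 3 libraries, against 4, and mitochondrial genes higher were 0 in both of the last, against 2. All genes higher were 451 with the groups alone, 65 without the 3 libraries and 1090 at 0.1, against 695, and all genes lower 617 with DESeq2, 268, 40 and 816 in the same order, against 411.

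Averaged over diets, listed cytosolic genes lower were 0 under median-of-ratios scaling, no filter, no sex term, sex read from counts and without the 3 libraries, against 1. Without the 3 libraries, other cytosolic genes higher were 0 against 2, mitochondrial higher 2 against 4, mitochondrial lower 0 against 2, all genes higher 1493 against 2519 and all genes lower 1471 against 2683. Mitochondrial genes lower were 1 under median-of-ratios scaling, DESeq2, no filter, the CPM filter and sex read from counts. For the diet in mutants DESeq2 called 1 gene higher and 2 lower, and in wild type 1 lower, against 0. The cause of these changes was not tested.

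Leaving out 1 library at a time gave, on the enriched diet, 0 to 1 listed cytosolic genes lower, 0 to 1 other cytosolic higher and 1 to 3 lower, 1 to 4 cytosolic lower, 0 to 1 mitochondrial lower and 1403 to 2626 of all genes lower (1463 without mutant replicate 2, 1593 without wild type replicate 1 and 1403 without wild type replicate 3). On the moderate diet it gave 1 to 7 listed, 0 to 2 other and 1 to 9 of all cytosolic genes higher, 0 to 2 mitochondrial higher and 0 to 1 lower, and 360 to 1220 of all genes higher and 178 to 887 lower. Averaged over diets it gave 0 to 1 listed cytosolic genes lower, 2 to 6 mitochondrial higher and 1 to 2 lower, and for the diet in mutants 0 to 1 of all genes higher.

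Deviations of libraries with the same replicate number correlated at -0.291 to 0.505, so not every same-numbered pair was above 0.1 and the numbers were not taken to pair the libraries; the labels give no shared litter or batch. With the replicate number as a block, 4979 genes and 17 members were called on the enriched diet, and 1453 and 8 on the moderate diet. The cause of the differing standard errors was not tested: on the enriched diet that of Cars2, at 7.83 to 18.2 CPM, was 0.17, and that of Lars2, at 464 to 1908 CPM, was 0.25.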
